A study of Mus musculus with 3 samples.

Results

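The 50 genes described here encode the actin cytoskeleton and the machinery that macrophages use to engulf particles. They were named by gene symbol, from a list of actin, Arp2/3, actin-binding and small GTPase genes. The rule uses no measured value, although the list was drawn up with earlier results of these data known. All 50 symbols were found, each under 1 gene identifier, among 55536 annotated genes of which 22028 are protein-coding. The series holds 1 group of 3 libraries of ribosome-depleted total RNA from C57BL/6J mouse bone marrow-derived macrophages, which are primary cells grown out of marrow. The cells belong to an experiment with lipid A, a TLR4 agonist, at 100 ng/ml, and RNA of their cytosolic fraction was taken at 0 minutes, so the libraries stand for its baseline. The labels call them biological replicates 1, 2 and 3, each with its own biosample, but give the same donor label to all 3. Sex and age were not collected, and nothing separates cultures from animals, so every SD below may be technical: it covers the 3 samples and no wider population.

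Actin exists as monomers and filaments, and macrophages push their membrane around a particle by adding monomers to filaments just under it. The Arp2/3 complex starts new branches from existing filaments once WASP or the WAVE complex has switched it on, and these activators are in turn governed by the small GTPases Cdc42 and Rac. Monomer-binding proteins set how much actin is free to assemble, while capping, severing and crosslinking proteins set the length and the arrangement of the filaments.

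Estimated counts over genes came to 26318761, 41897257 and 56290298 in replicates 1, 2 and 3, and the least covered value of any member was 596 counts (Arpc5l in replicate 1). The labelled cell type was checked against marker genes. All 8 macrophage markers were detected at a TPM (transcript abundance per length, with a fixed sum per library) of at least 1 in every library, and their summed TPM ranged between 5189 and 7378. All fibroblast, muscle, platelet, lymphocyte and erythroid markers stayed below 1 in every library. Of 5 neutrophil markers only Ngp passed 1, at 1.92, 1.29 and 2.29 TPM in replicates 1, 2 and 3. Protein-coding genes took 26.2% of TPM in replicate 1, 22.0% in replicate 2 and 21.7% in replicate 3, which lifts the TPM of most mRNAs in replicate 1. In the deposited TPM 47 of the 50 members had their highest TPM in replicate 1, against 19 of 50 once TPM was rescaled to protein-coding genes alone.

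Every one of the 50 members was detected at a TPM of at least 1 in all 3 libraries, against 17.0% of all annotated genes and 41.0% of protein-coding genes. The list was assembled from well-known genes, so this share is a description of the list. The median member stood at 63.1 TPM, beside 7.19 TPM for the median of 9023 detected protein-coding genes. Mean TPM reached 100 for 19 members, a level reached by 1.5% of all protein-coding genes and 3.66% of the detected ones. Another 26 members lay from 10 to 100 TPM and 5 lay under 10. Together the members held 2.73% of all gene counts in replicate 1 (95% Wilson interval 2.72 to 2.73%), 2.52% in replicate 2 (2.52 to 2.53%) and 2.50% in replicate 3 (2.50 to 2.51%). As a share of protein-coding TPM they held 3.45 ± 0.0805% (SD, n = 3), which varied less between libraries than their summed TPM of 9296, 7458 and 7413 in replicates 1, 2 and 3. The highest member exceeded the lowest 534-fold in mean TPM.

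**Figure D1:**
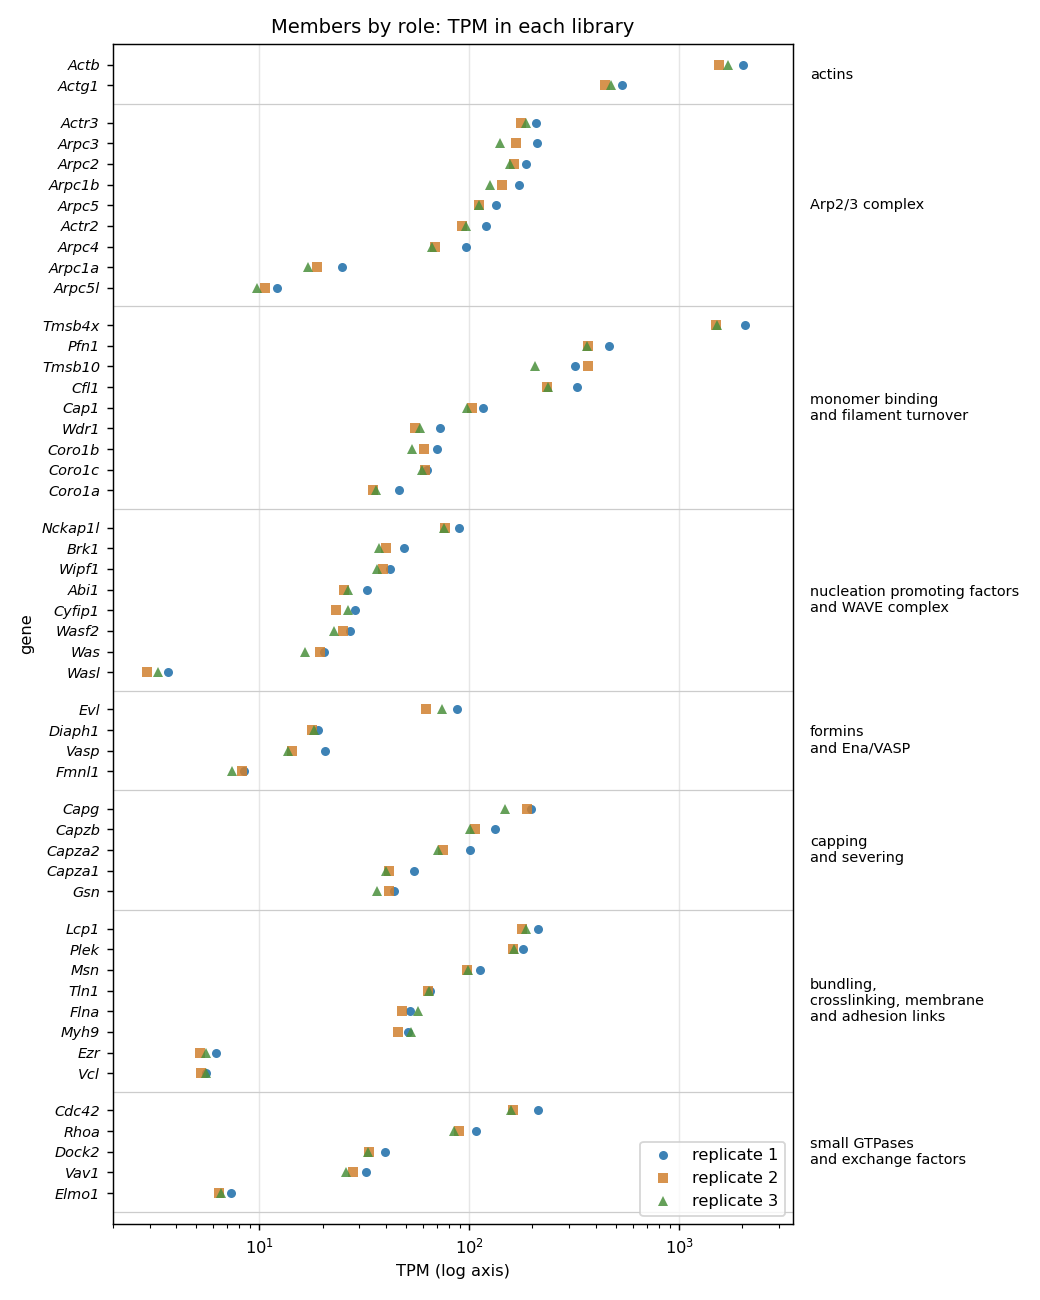
TPM of the 50 members in replicates 1 (circles), 2 (squares) and 3 (triangles) on a log axis, grouped by role and ordered by mean within a group. Actb and Tmsb4x stand at 1505 TPM or more in every library, and Wasl, Vcl, Ezr, Elmo1 and Fmnl1 below 10.

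Actb and Tmsb4x were the most abundant members. Actb (chromosome 5, 142903115 to 142906754, mm10), which encodes cytoplasmic β-actin, had 2014, 1542 and 1713 TPM in replicates 1, 2 and 3. Actg1 (chromosome 11, 120345690 to 120348542), the gene of cytoplasmic γ-actin, had 536, 441 and 476 TPM. Both actins were highest in replicate 1 and lowest in replicate 2, and their ranges did not overlap. Actb exceeded Actg1 by 3.62 ± 0.131-fold in TPM (SD, n = 3). The muscle actin genes Acta1 and Actc1 and the smooth muscle gene Actg2 were listed at 0 TPM in all 3 libraries, and smooth muscle Acta2 reached at most 0.11.

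β- and γ-actin are almost the same protein and differ at their amino terminus. Their coding sequences, 1125 bases each without the stop codon, were identical at 88.6% of bases (128 differences). The first 36 coding bases hold the part where the proteins differ and are shown from the GENCODE M21 transcripts Actb-201 and Actg1-202, each 5′ to 3′ on the coding strand (minus in both), with the bases that differ in capitals. The counts of each actin can depend on how the authors' software divided any reads that fit both genes or their copies. How far they do was not tested.
Actb: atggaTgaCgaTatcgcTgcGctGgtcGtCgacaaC
Actg1: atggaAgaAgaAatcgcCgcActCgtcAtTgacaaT

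Monomer-binding and filament turnover genes held 36.9 ± 1.44% of the members' summed TPM and the 2 actins 27.9 ± 1.52% (SD, n = 3). Tmsb4x (chromosome X, 167207093 to 167209315), which encodes thymosin β4, a small peptide that holds actin monomers out of filaments, had 2066, 1505 and 1510.0 TPM in replicates 1, 2 and 3. Its level was close to that of Actb, with an Actb over Tmsb4x ratio of 0.975, 1.02 and 1.13 in the same libraries, so the order of this pair changed between libraries. Actb and Tmsb4x together made up 42.7 ± 1.65% of the members' TPM. The related thymosin gene Tmsb10 (chromosome 6, 72957347 to 72958748) had 318, 368 and 205 TPM. Tmsb10 was highest in replicate 2 and lowest in replicate 3, whereas Tmsb4x, Pfn1, Cfl1 and Cap1 were each highest in replicate 1. Tmsb4x exceeded Tmsb10 by 6.49-fold in replicate 1, 4.09-fold in replicate 2 and 7.37-fold in replicate 3. Summed over both genes of each kind, actin mRNA stood at 1.07, 1.06 and 1.28 times thymosin mRNA.

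The thymosin coding sequences are short enough to show whole, and they show how far apart the transcripts of these small, closely related peptides are. Both are 132 bases without the stop codon. The lines give Tmsb4x-201 and Tmsb10-203 5′ to 3′ on the coding strand (minus in both), with the 40 bases that differ between them in capitals.
Tmsb4x: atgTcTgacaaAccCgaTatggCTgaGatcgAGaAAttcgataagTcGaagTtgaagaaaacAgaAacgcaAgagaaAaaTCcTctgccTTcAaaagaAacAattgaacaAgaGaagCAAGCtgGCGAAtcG
Tmsb10: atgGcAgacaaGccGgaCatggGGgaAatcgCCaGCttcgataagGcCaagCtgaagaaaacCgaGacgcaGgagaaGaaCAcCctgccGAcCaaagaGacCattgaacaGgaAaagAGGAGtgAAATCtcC

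Pfn1, which encodes profilin, the protein that delivers monomers to growing filament ends, had 461, 368 and 362 TPM in replicates 1, 2 and 3. Cfl1, the gene of the severing protein cofilin, had 326, 234 and 237 TPM. In both genes replicate 1 stood above the other two, which lay close together. Their paralogues were far lower. Pfn2 averaged 1.19 ± 0.101 TPM and the muscle cofilin gene Cfl2 averaged 4.67 ± 0.612 TPM (SD, n = 3 each). Dstn, the gene of the third cofilin-family protein, destrin, was the exception at 39.9 ± 5.31 TPM. Genes of 2 cofilin helpers stood lower than Cfl1 itself: Cap1, which recycles monomers from cofilin, averaged 106 ± 9.36 TPM, and Wdr1, which speeds up severing, averaged 62.0 ± 9.09 TPM (SD, n = 3 each).

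Coronins bind filaments and act with Arp2/3 and cofilin. Coro1a, the coronin known from leukocytes, had 46.5, 34.8 and 35.9 TPM in replicates 1, 2 and 3. Coro1b had 70.6, 61.0 and 53.3 TPM and Coro1c had 63.0, 61.6 and 59.8 TPM. The leukocyte gene was therefore the lowest of the 3 in every library, with a difference of -0.66 ± 0.13 from Coro1b and -0.67 ± 0.20 from Coro1c on the log2(TPM + 0.1) scale (SD, n = 3 each). The ranges of Coro1b and Coro1c overlapped, so these levels cannot be ordered.

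The Arp2/3 complex has 7 places, of which 2 can be filled by either of a pair of paralogous subunits. Its 9 genes held 12.5 ± 0.255% of the members' TPM. Actr3, for the actin-related protein Arp3, had 208, 177 and 187 TPM in replicates 1, 2 and 3. Actr2, for Arp2, had 120, 91.9 and 96.2 TPM. Arp3 mRNA thus lay above Arp2 mRNA in every library, although the complex holds 1 copy of each. Arpc2, a core subunit that binds the mother filament, had 186, 164 and 157 TPM. Arpc3, for one of the smaller subunits, had 210.0, 168 and 141 TPM, and Arpc4, which pairs with Arpc2 in the core, had 96.7, 68.5 and 66.6 TPM. Replicate 1 was highest for each of these, and replicate 3 was lowest for Arpc2, Arpc3 and Arpc4.

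For both places with a choice of subunit, 1 paralogue dominated. Arpc1b, the form known from blood cells, had 173, 144 and 125 TPM in replicates 1, 2 and 3. Arpc1a had 24.9, 18.9 and 17.0 TPM. The genes are neighbours on the plus strand of chromosome 5 (145114215 to 145130705 for Arpc1b and 145083830 to 145108761 for Arpc1a), and they differed by 2.86 ± 0.06 in log2(TPM + 0.1) (SD, n = 3). Arpc5 had 134, 112 and 111 TPM and Arpc5l had 12.2, 10.6 and 9.75 TPM. That difference was 3.44 ± 0.05 in log2(TPM + 0.1) (SD, n = 3), and the ranges did not overlap in either pair.

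With paralogues summed, the places ranked as Actr3 at 191 ± 15.7 TPM, Arpc3 at 173 ± 35.0, Arpc2 at 169 ± 15.1, Arpc1a plus Arpc1b at 168 ± 28.1, Arpc5 plus Arpc5l at 130 ± 14.3, Actr2 at 103 ± 15.1 and Arpc4 at 77.3 ± 16.8 (SD, n = 3 each). The first 4 places changed order between libraries, each being above the next in only 2 of 3. The lower 3 places kept their order in all 3 libraries by these values. A second set of transcript tables, in the layout of kallisto, put Arpc4 above Actr2 in replicates 1 and 2. There Arpc4 had 49.10 and 44.24 TPM, and Actr2 had 46.91 and 44.15. Within a library the highest place exceeded the lowest by 2.17-, 2.58- and 2.81-fold in replicates 1, 2 and 3, so the summed places lay within a 3-fold band of TPM. Single genes of the complex spread more widely, because Arpc1a and Arpc5l lay far below the others. Aligned coding sequences were 74.8% identical between Arpc1b and Arpc1a and 73.2% between Arpc5 and Arpc5l.

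**Figure D2:**
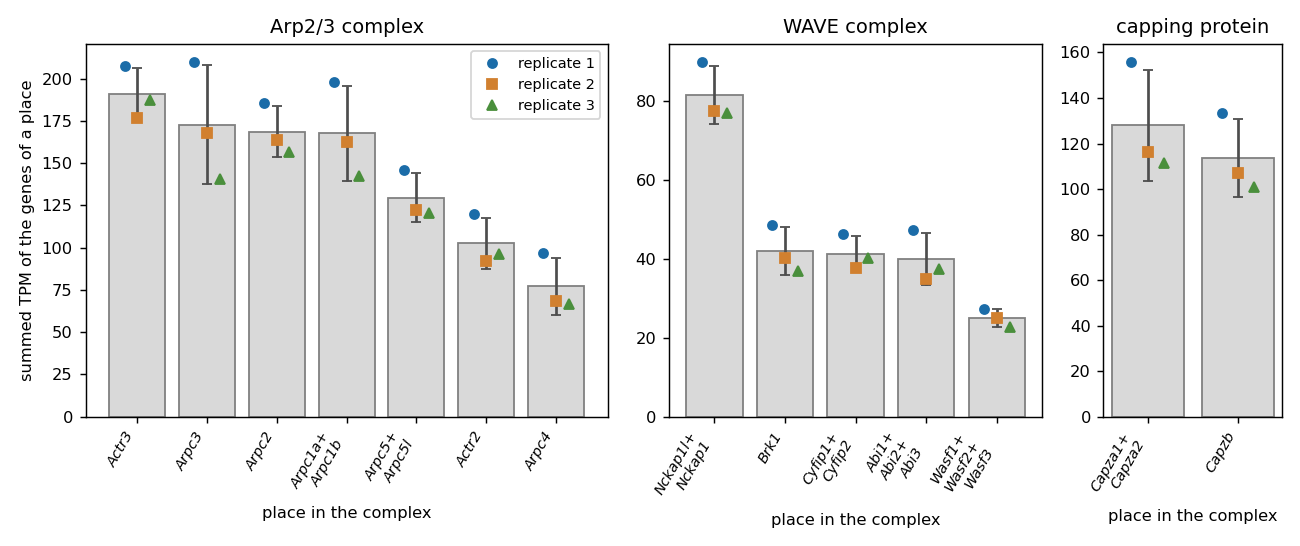
Summed TPM of the genes that fill each place of the Arp2/3 complex, the WAVE complex and capping protein; bars are means, error bars SD over 3 libraries, and symbols the replicates. Arp2/3 places span 77.3 to 191 TPM and WAVE places 25.0 to 81.5 TPM, while the α and β places of capping protein lie at 128 and 114 TPM.

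Was and Wasl encode activators of Arp2/3. Was, which encodes WASP, the activator named after the immunodeficiency it causes in people, had 20.3, 19.4 and 16.4 TPM in replicates 1, 2 and 3. Wasl, for the widely expressed N-WASP, had 3.67, 2.91 and 3.29 TPM and was the lowest of all members. The ranges did not overlap, and Was exceeded Wasl by 2.47 ± 0.21 in log2(TPM + 0.1) (SD, n = 3). Wipf1, for the protein WIP that binds and stabilises WASP, averaged 39.0 ± 2.85 TPM, which was above Was in every library.

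The WAVE complex has 5 places. Wasf2, for the WAVE2 subunit that activates Arp2/3, averaged 25.0 ± 2.24 TPM, while its paralogues Wasf1 and Wasf3 reached at most 0.01 TPM. Nckap1l, which encodes the blood-cell subunit Hem1, had 89.0, 76.8 and 76.0 TPM in replicates 1, 2 and 3, against 0.903 ± 0.115 TPM on average for its widely expressed paralogue Nckap1. The place of the Rac-binding subunit was shared, with 26.1 ± 2.82 TPM for Cyfip1 and 15.2 ± 2.03 TPM for Cyfip2. Abi1 averaged 28.1 ± 3.91 TPM beside 5.01 ± 0.519 for Abi2 and 6.85 ± 2.15 for Abi3, and the small subunit Brk1 averaged 42.0 ± 6.00 TPM (SD, n = 3 each). With paralogues summed, the Nckap1 place was the highest and the Wasf place the lowest in every library, 3.27 ± 0.148-fold apart. The other 3 places averaged 40.0 to 42.0 TPM.

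Formins and Ena/VASP proteins extend unbranched filaments from their ends. Evl had 87.6, 62.2 and 74.1 TPM in replicates 1, 2 and 3, and Vasp had 20.6, 14.3 and 13.7 TPM. The third gene of that family, Enah, reached at most 0.13 TPM. Evl thus exceeded Vasp in every library, by 2.21 ± 0.19 in log2(TPM + 0.1). A single annotated transcript, Evl-207, which is 569 bases long and incomplete at its 5′ end, took 46.8 ± 2.03% of Evl TPM. Without it Evl averaged 39.5 ± 5.41 TPM and exceeded Vasp by 1.30 ± 0.23, an alternative chosen after seeing the data (SD, n = 3 each). The formin genes were low among the members. Diaph1 (mDia1, a target of RhoA) averaged 18.3 ± 0.548 TPM (SD, n = 3). Fmnl1, a formin of leukocytes, had 8.49, 8.29 and 7.41 TPM in replicates 1, 2 and 3. Both stood above the 7.19 TPM of the median detected protein-coding gene.

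Capping proteins close filament ends. Capza1 and Capza2 encode the α subunit and Capzb the β subunit of the same heterodimer. Capza2 had 101, 75.0 and 71.3 TPM in replicates 1, 2 and 3 and Capza1 had 54.9, 41.4 and 40.2 TPM. Their difference of 0.85 ± 0.03 in log2(TPM + 0.1) was among the most even of all pairs (SD, n = 3). The α genes together averaged 128 ± 24.4 TPM and Capzb 114 ± 17.2 TPM, and their ratio was 1.17, 1.09 and 1.10 in replicates 1, 2 and 3. By these values the α and β places lay within 1.2-fold of each other in each library. The second set of transcript tables, in the layout of kallisto, put the α place more than 1.2-fold above β in each library. Its means were 46.9 TPM for Capza2, 19.7 for Capza1 and 50.7 for Capzb. Capg, which encodes the macrophage capping protein of the gelsolin family, had 196, 188 and 148 TPM. Gsn, for gelsolin, which also severs filaments, had 43.7, 41.5 and 36.3 TPM. Capg exceeded Gsn by 2.12 ± 0.09 in log2(TPM + 0.1) (SD, n = 3), without overlap.

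Among genes for bundling, crosslinking and membrane links, Lcp1 (L-plastin, the filament bundler of white blood cells) had 214, 179 and 186 TPM in replicates 1, 2 and 3. Its paralogues of other tissues, Pls1 and Pls3, averaged 0.0167 and 1.35 TPM. Plek, for pleckstrin, a protein kinase C substrate of leukocytes and platelets, averaged 168 ± 9.67 TPM, while its paralogue Plek2 reached at most 0.01 TPM. Platelet markers were all below 1 TPM and summed to between 0.8 and 1.04 TPM. Msn, for moesin, which ties filaments to the membrane, had 113, 97.2 and 98.6 TPM. Ezr, for the related ezrin, had 6.20, 5.24 and 5.58 TPM, and the third gene of that family, Rdx, averaged 17.7 ± 1.30 TPM. Moesin mRNA exceeded ezrin mRNA by 4.16 ± 0.04 in log2(TPM + 0.1) (SD, n = 3), the widest difference between 2 members of 1 family.

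Flna, for the crosslinker filamin A, had 51.9, 47.7 and 57.0 TPM in replicates 1, 2 and 3. Myh9, the heavy chain of nonmuscle myosin IIA, averaged 49.8 ± 3.51 TPM, against 0.757 ± 0.0764 TPM for Myh10. Among the adhesion genes, Tln1 (talin, which activates integrins) averaged 64.2 ± 0.820 TPM. Vcl, for vinculin, which binds talin, had 5.54, 5.30 and 5.54 TPM in replicates 1, 2 and 3. Talin mRNA thus stood 11.8 ± 0.188-fold above vinculin mRNA (SD, n = 3), a ratio that hardly varied between libraries. It did depend on the kind of table. The second set of transcript tables gave a larger ratio, with means of 37.5 TPM for Tln1 and 2.43 for Vcl. The vinculin gene shares 2090 exonic bases, 25.5% of its own, with Ap3m1 on the opposite strand, a gene that averaged 11.1 ± 1.51 TPM. Whether reads were counted by strand is not given in the sources used here, so part of the reads of either gene could belong to the other.

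Of the small GTPases, Cdc42 (chromosome 4, 137319696 to 137357720) had 212, 162 and 158 TPM in replicates 1, 2 and 3, and Rhoa averaged 93.7 ± 12.4 TPM. The exchange factor genes were lower. Dock2, the Rac activator of blood cells, had 39.8, 33.5 and 32.9 TPM, and Vav1 averaged 28.7 ± 3.24 TPM. Vav2 and Vav3, the other two genes of that family, averaged 9.25 ± 1.49 and 12.7 ± 1.33 TPM (SD, n = 3 each). Elmo1, for a partner of DOCK proteins in the uptake of dying cells, had 7.35, 6.43 and 6.53 TPM. It lay below its paralogue Elmo2, outside the list, in every library, with Elmo2 at 8.39 ± 0.974 TPM and a log2 difference of -0.30 ± 0.07 (SD, n = 3). The second set of transcript tables, in the layout of kallisto, turned the direction of this small difference, with a mean of 0.04.

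Cdc42 is spliced to either of 2 final coding exons, so the transcript that dominates decides the end of the protein. The ubiquitous form, Cdc42-202, took 99.4 ± 0.175% of Cdc42 TPM with 211, 161 and 156 TPM in replicates 1, 2 and 3. The form known from brain, Cdc42-201, had 1.27, 0.80 and 1.32 TPM. Both coding sequences have 573 bases without the stop codon and first differ at base 488, counted from the start codon. The last 60 coding bases are shown 5′ to 3′ on the coding strand (minus), with the 26 bases that differ in capitals.
Cdc42-202: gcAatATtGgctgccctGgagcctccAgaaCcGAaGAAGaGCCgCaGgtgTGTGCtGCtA
Cdc42-201: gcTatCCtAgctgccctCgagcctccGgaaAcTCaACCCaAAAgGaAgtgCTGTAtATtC

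Across all families, 37 pairs of paralogues were compared within each library. In 11 pairs both genes are members, and in 26 the second gene lies outside the list. The member exceeded its outside paralogue in every library in 25 of 26 pairs, and by more than 2-fold in every library in 23. These counts depend on which genes were paired: Rdx was paired with Msn only, and Ezr, at 5.24 to 6.20 TPM, lay below Rdx, at 16.63 to 19.15 TPM. Among the member pairs, the first gene exceeded the second by more than 2-fold in every library in 8 of 11. The others were Capza2 over Capza1, which fell short of 2-fold, and Coro1a, which lay below both Coro1b and Coro1c. In 11 of the 26 outside pairs the second gene stayed below 1 TPM in all libraries, and there the log2 ratio depends on the 0.1 TPM added before taking logs. With 3 libraries an exact two-sided sign-flip test cannot give a p below 0.25, so no pair was tested.

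**Figure D3:**
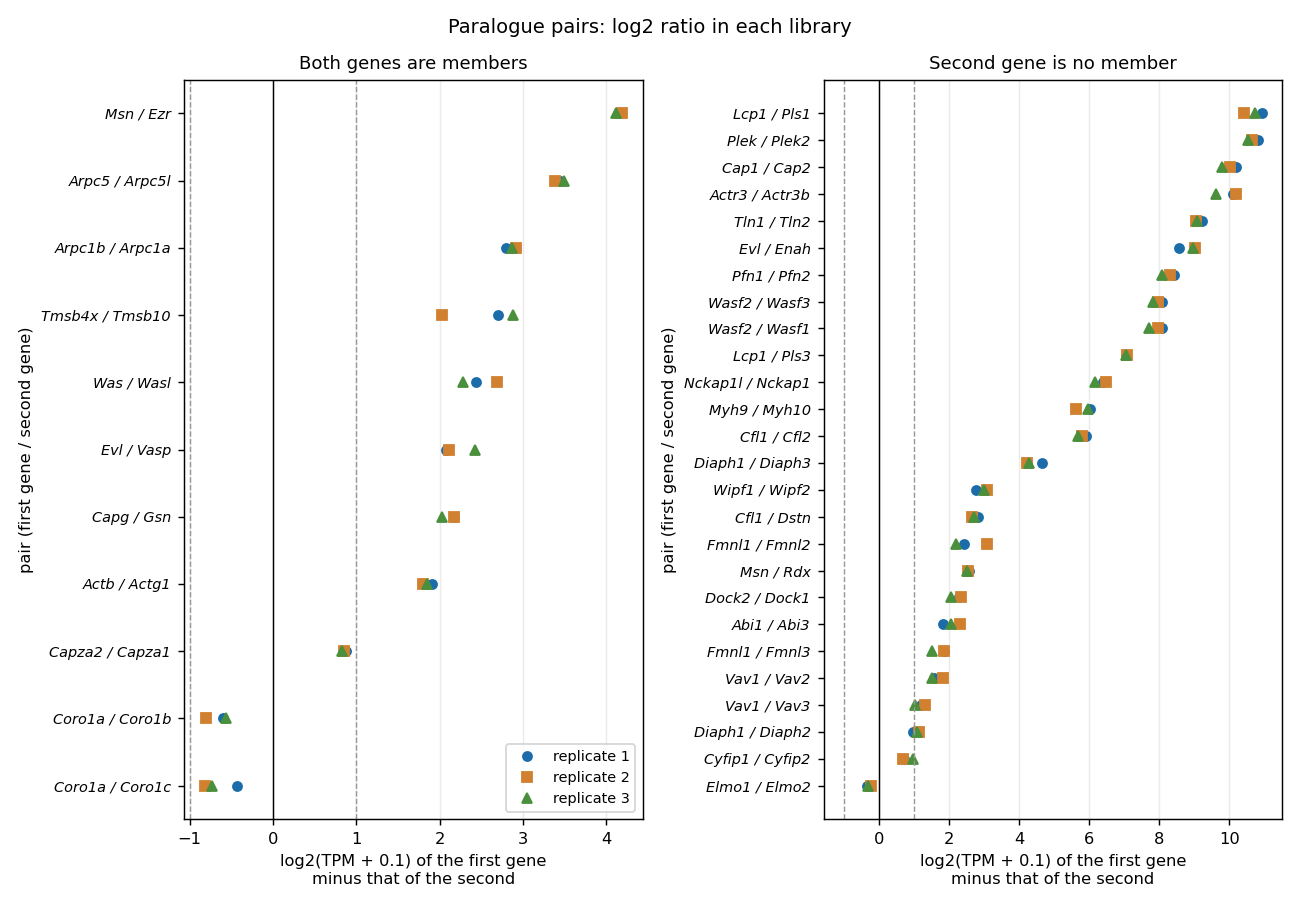
Difference in log2(TPM + 0.1), first gene minus second, for 37 paralogue pairs in replicates 1 (circles), 2 (squares) and 3 (triangles); dashed lines mark 2-fold. Coro1a lies below Coro1b and Coro1c and Elmo1 below Elmo2, and all other pairs lie right of 0 in every library.

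Of 97 further genes of the pathway, 68 were detected in every library, against 41.0% of all protein-coding genes. Another 28 were below 1 TPM in every library and 1 (Fmnl2) was neither. This list too was chosen with earlier results of these data known, so the counts describe the list. The median of the 97 genes was 8.39 TPM. The highest were Myl6, a myosin light chain, at 303 ± 27.4 TPM, Arhgdia, an inhibitor of small GTPases, at 177 ± 26.7, and Cotl1, a coactosin-like actin binder, at 168 ± 19.7. Tpm3, a tropomyosin, followed at 145 ± 12.3, then the related inhibitor Arhgdib at 118 ± 30.3, the scaffold Iqgap1 at 116 ± 10.5 and the GTPase Rac1 at 105 ± 18.2. Marcks at 84.7 ± 23.4, Rhog at 82.1 ± 14.9 and the light chain Myl12b at 73.6 ± 12.9 completed the first 10 (SD, n = 3 each). Rac1 stood 1.82 ± 0.0943-fold above Rac2, the form of blood cells, which averaged 57.8 ± 8.99 TPM. Tpm2, Myl9 and the villin gene Vil1 did not pass 0.05 TPM in any library. Not every gene known from muscle was that low. The muscle cofilin gene Cfl2 had 5.35, 4.16 and 4.51 TPM in replicates 1, 2 and 3, and smooth muscle Acta2 reached 0.11.

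The spread between libraries was measured on log2 CPM (counts scaled to library size with TMM factors, which allow for library composition). The median SD over the members was 0.0853 log2 units, beside 0.119 for 12413 genes past the filter on low counts. Without replicate 3 this order turned, at 0.0892 for the members and 0.0853 for filtered genes. Over 6188 genes with at least 500 counts in every library, as all members had, the median SD was 0.0887, close to that of the members. The steadiest member was Msn, at 9.47, 9.48 and 9.48 log2 CPM in replicates 1, 2 and 3 (SD 0.0102). Lcp1 (SD 0.0171), Nckap1l (0.0174), Arpc5 (0.0235) and Dock2 (0.0376) followed. On the TPM scale these 5 were all highest in replicate 1.

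The least steady member was Tmsb10, at 7.55, 8.06 and 7.20 log2 CPM in replicates 1, 2 and 3 (SD 0.433). Flna came next at 9.22, 9.38 and 9.65 (SD 0.218). Arpc1b had 9.00, 8.83 and 8.59 log2 CPM (SD 0.204). Vasp had 6.14, 5.86 and 5.78 (SD 0.187) and Capza2 had 8.57, 8.22 and 8.34 (SD 0.180). Thus Flna was highest in replicate 3, while Arpc1b, Vasp and Capza2 were highest in replicate 1 and Tmsb10 in replicate 2. In bulk RNA, a change in the make-up of the cells and a change in RNA per cell cannot be told apart.

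A library was called apart for a gene when it lay more than 1.2-fold above or below the mean of the other two. Replicate 1 lay above for 3 members (Arpc1b, Capza2 and Vasp), against 8.14% of all filtered genes, and below for 1 member (Flna), against 14.7%. Replicate 2 lay above for 2 members (Capg and Tmsb10), against 8.14% of genes, and below for none, against 12.1%. Replicate 3 lay above for 1 member (Flna), against 15.7%, and below for 4 (Arpc1b, Arpc3, Capg and Tmsb10), against 8.21%. In all, 7 of 50 members were called in at least 1 library, or 14%, against 36.3% of filtered genes and 17.5% of the well-covered ones. The share for members therefore lay close to that of genes with at least 500 counts in every library. That set shares a minimum with the members but is not matched to them in coverage.

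These differences went with transcript length. Across the 50 members, Spearman's rho between effective length and the difference from the other two libraries was -0.56 for replicate 1, 0.00 for replicate 2 and 0.60 for replicate 3. Over 9022 detected protein-coding genes the values were -0.24, -0.17 and 0.37. These correlations run across genes that share the same libraries, and genes are not independent replicates. The 25 shorter members lay 0.08 log2 units above the other two libraries in replicate 1 at the median and 0.13 below in replicate 3. The 25 longer ones lay at -0.02 and 0.01. Flna, with an effective length of 6838 bases, and Tmsb10, with 351, lie near the ends of this range. The part of length in the calls was not tested.

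**Figure D4:**
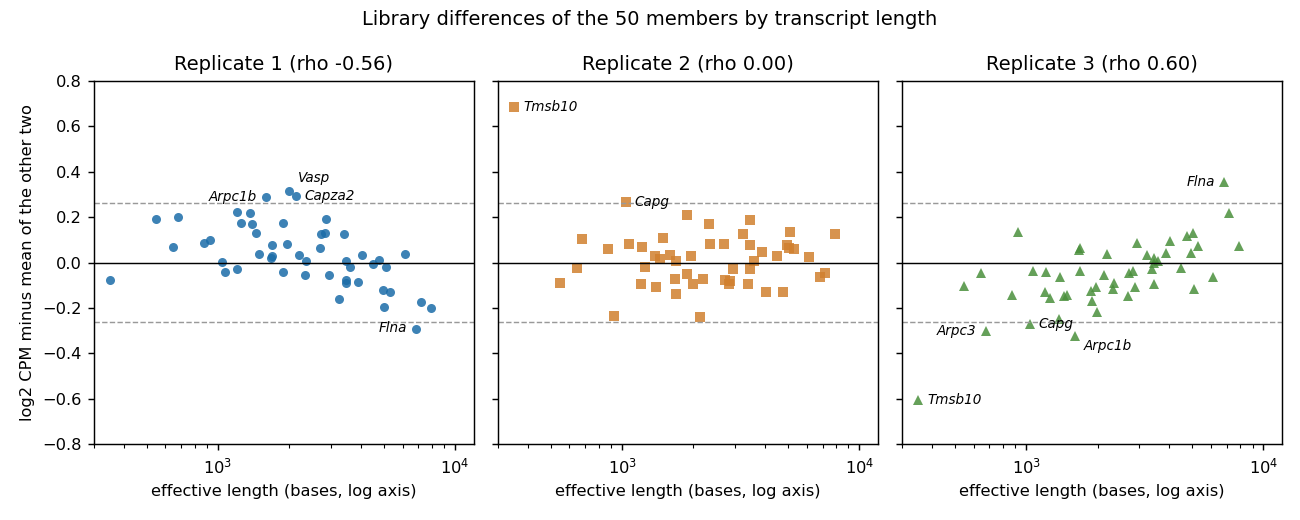
Difference of each library's log2 CPM from the mean of the other two, against effective transcript length (log axis), for the 50 members; dashed lines mark 1.2-fold and names mark members past it. Most of the shorter members lie above 0 in replicate 1 and below 0 in replicate 3, while the 25 longer ones have medians of -0.02 and 0.01 there.

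The 50 genes have 342 annotated transcripts. No share over other genes is given for the counts that follow, so they describe the list alone. In 31 members 1 transcript took at least 90% of TPM, and in 7 the main transcript took under 60%. In 3 of these 7 the leading pair of transcripts has the same coding sequence. Lcp1-209 and Lcp1-206 encode the same 1881 coding bases and took 55.6 ± 2.69% and 42.6 ± 2.25%. Wipf1-203 and Wipf1-201, both with 1479 coding bases, took 42.1 ± 5.59% and 38.2 ± 6.18%, and Cyfip1-203 and Cyfip1-201, both with 3759, took 45.4 ± 4.84% and 39.6 ± 1.63%. Within each of these pairs the coding sequence is thus the same whichever transcript leads. Other coding forms took part as well, namely the incomplete Wipf1-205 (16.2 ± 0.934%, 589 coding bases) and Cyfip1-202 (10.6 ± 4.24%, 3753). In the second set of transcript tables Cyfip1-202 took 18.5% and Cyfip1-201 took 18.4% on average.

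In other genes the leading forms differ in coding length. Abi1 was divided over Abi1-212 (35.2 ± 3.49%, 1179 coding bases), Abi1-201 (25.2 ± 4.61%, 1356), Abi1-211 (21.2 ± 1.88%, 1338) and Abi1-204 (14.3 ± 3.14%, 1164). In the second set of transcript tables Abi1-201 led at 27.8% on average, with Abi1-204 at 20.1%, Abi1-212 at 17.9% and Abi1-211 at 9.79%. Diaph1-205, Diaph1-201 and Diaph1-203 took 40.1 ± 3.21%, 30.7 ± 11.4% and 28.4 ± 13.4%. Diaph1-203 is the least certain, at 13.2% in replicate 1, 38.3% in replicate 2 and 33.9% in replicate 3, and at 0.391% on average in the second set of transcript tables. In Arpc4 the full-length form Arpc4-201, with 504 coding bases, took 30.2 ± 4.54%, less than the 44.5 ± 3.16% of Arpc4-203, whose coding sequence has 234 bases (SD, n = 3 each).

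Transcripts not annotated as protein-coding are noncoding or marked for nonsense-mediated decay. Incomplete coding transcripts, such as Evl-207 with 46.8 ± 2.03% of Evl TPM, are not among them. In the first tables Flna was the 1 member with over 20% of TPM on transcripts not annotated as protein-coding, at 26.5 ± 1.65%. In the second set of tables that share was 2.02%. Its main coding transcript Flna-202 took 68.2%, 69.5% and 68.8% in replicates 1, 2 and 3. The 738-base processed transcript Flna-215 took 18.2%, 12.5% and 6.85%, and the 8233-base decay transcript Flna-213 took 10.9 ± 1.57% on average. In the second set of tables no TPM fell on Flna-215 and almost none on Flna-213. In the first tables Gsn was almost all Gsn-205 (95.9 ± 0.536%), which lacks the start of the secreted form. Gsn-201, the secreted form, reached at most 0.26 TPM there. In the second set of tables Gsn-205 took 84.2%, the incomplete Gsn-206 took 10.2% and Gsn-201 took 4.06% on average.

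**Figure D5:**
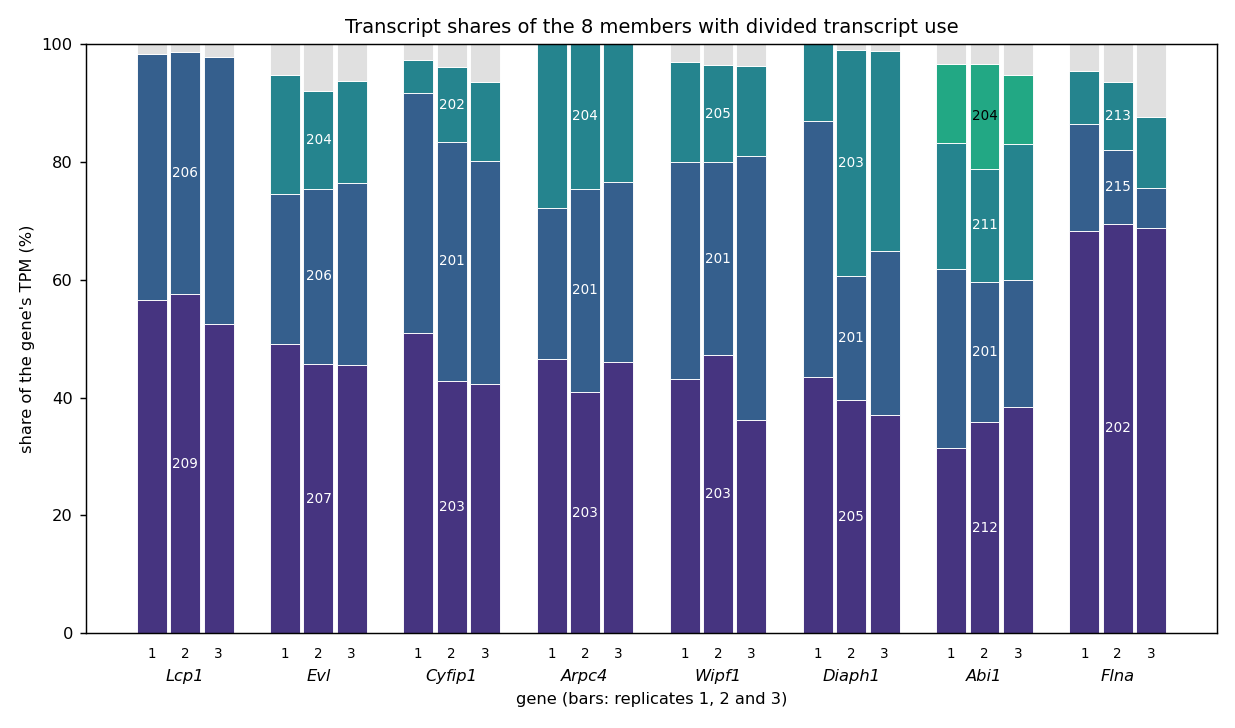
Share of each gene's TPM (%) taken by its transcripts in replicates 1, 2 and 3, for the 7 members whose main transcript takes under 60% and for Flna; numbers are transcript names, and grey is the sum of transcripts under 10% on average. Diaph1-203 varies most, between 13.2 and 38.3%, and Flna-215 lies between 6.85 and 18.2%.

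The transcript tables of the second kind gave lower levels for all 50 members. Their TPM stood at 0.443 times the first at the median, and between 0.365 times for Flna and 0.584 times for Tln1. The same ratio was 0.447 over detected protein-coding genes, so the members moved with other mRNAs. The order of the members was nearly the same in both, with a Spearman's rho of 0.994 across 50 genes, and 49 of 50 had the same main transcript. Tln1 differed in how it was divided: the 836-base incomplete transcript Tln1-206 took 27.9 ± 0.620% of TPM in the second tables, against 0.0473% on average in the first.

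Some members have processed copies elsewhere in the genome, which could draw reads away. No share over other genes is given for copies or for the overlaps below, so the counts describe the list alone. Annotated pseudogenes of at least 85% identity over at least 80% of the coding sequence numbered 52, for 15 members, led by Actg1 with 10 and Tmsb10 with 8. They held few counts. Reads on copies came to 1.30 ± 0.232% of the sum for Actg1 and 1.70 ± 0.287% for Capza1 (SD, n = 3 each), and to under 1% for the other 13. Exonic overlap with another annotated gene was found for 25 members, for 13 of which the partner averaged at least 1 TPM. The largest partner was Rpl35 at 121 ± 27.3 TPM, which shares 62 bases with Arpc5l on the opposite strand.

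Promoter windows (RefSeq, GRCm38.p6, 250 bases before to 50 after the start) were found for 44 members. The CArG box, the site of serum response factor known from actin promoters, can contain the TATAAA searched next to it. It was found on either strand in 3 members, Actg1, Arpc4 and Vcl, or 6.82%, against 1.81% of all genes with a window. TATAAA was found in 4 members (9.09%, against 15.7% of all genes) and GGGCGG in 33 (75%, against 38.2%). GAGGAA, the core of the site of the myeloid factor PU.1, was found in 16 (36.4%, against 31.3%). Each motif was searched on both strands, and a match describes letters in the window, not a bound site.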

How the data were processed

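Per the labels, 1 µg of RNA entered each library, and values refer to mm10. The authors deposited a gene table and a transcript table in the column layout of RSEM and a transcript table in that of kallisto; tool versions are not given in the sources used here. The notes deposited with each library name the GENCODE M21 annotation. Per the file headers, the deposited values are expected counts (estimated reads per feature, which need not be whole), TPM as maximum likelihood and posterior mean, FPKM (not used here) and the percent of a gene's transcripts on each isoform, which was recomputed here from TPM. Entries outside annotated genes (tRNA, spike-ins) held 0.406%, 0.121% and 0.0731% of counts in replicates 1, 2 and 3 and were left out.

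Levels are the RSEM-format TPM; log2 ratios add a pseudocount of 0.1 TPM. Expected counts were rounded to whole numbers, and edgeR 4.0.16 (R 4.3.3) with its low-count filter, TMM scaling and a prior count of 2 gave log2 CPM; TMM factors were 1.04, 0.992 and 0.971 and the common biological coefficient of variation was 0.145. The spread step was tested on simulated counts. Coding sequences came from GENCODE M21 transcripts, and processed copies from BLAST 2.17.0. Wilson intervals cover counting error only, since reads without molecular identifiers are not independent molecules.

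With 1 group, no comparison between conditions could be made. The members, pairs, role groups and gene lists were chosen with earlier results of these data known; 1 listed gene and its pair are not reported here. Values in every library are given, by rule, for the 10 highest and 5 lowest members, the 5 most and 5 least variable, all Arp2/3 subunits and all member pairs; of the pathway, the 10 highest genes and any above its member paralogue are named. Alternatives were the kallisto-format and posterior mean TPM, TPM over protein-coding genes, other pseudocounts, thresholds, filters and prior counts, DESeq2 1.42.0 size factors, and leaving out each library.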

Additional observations from a re-analysis of the deposited data

How the results depend on the processing

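No paired analysis was possible because the series has 1 group. All 50 members stayed detected under every source of TPM and without any library, and 49 passed a TPM of 5. The count of pairs past 2-fold in every library, 31, was 30 to 32 elsewhere: Vav1 over Vav3 fell short with kallisto-format TPM, posterior mean TPM and a pseudocount of 1 TPM, Capza2 over Capza1 passed with kallisto-format TPM, and Diaph1 over Diaph2 passed without replicate 1. No pair past 2-fold changed direction, but Elmo1 over Elmo2, at -0.30, was 0.04 with kallisto-format TPM. Summed TPM of the members, 8056, was 3615 with kallisto-format TPM and 34510.1 over protein-coding genes alone, and 7436 to 8377 with 1 library left out. The ratio of the highest to the lowest Arp2/3 place, 2.52, was 2.18 with kallisto-format TPM and 2.38 to 2.70 with 1 library left out. The median SD of the members was 0.160 on log2(TPM + 0.1), against 0.185 for filtered genes, and 0.0587 to 0.0892 with 1 library left out, against 0.0853 to 0.115 for filtered genes, which were below the members without replicate 3. On that TPM scale 23 members were past 1.2-fold in replicate 1 and 10 in replicate 3, against 4 and 5 on log2 CPM. Past 1.5-fold on log2 CPM there were 0 in replicate 1, 1 in replicate 2 and 1 in replicate 3 (Tmsb10). No share over all genes is given for the TPM scale or for 1.5-fold, so those counts do not set the members apart. Between the remaining libraries, 4 members were past 1.2-fold on log2 CPM without replicate 1, against 28.2% of filtered genes. Without replicate 2 there were 6, against 31.9%, and without replicate 3 there were 3, against 22.9%. Median ratios between table kinds were 0.410 to 0.459 with 1 library left out. The cause of these moves was not tested, except that rescaling to protein-coding genes changes the scale by construction. Isoform shares depended on the table: the main share moved by more than its SD in 37 of 50 members with the kallisto-format tables. Depth limited no member, the lowest value being 596 counts, but with 3 libraries no SD is precise.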
